A study of Ovis aries with 24 samples.

Results

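The proteasome genes were followed across 12 groups of sheep skeletal muscle. Members were the gene symbols of the platform annotation that start with PSM, a letter from A to G and a digit, and each was represented by its probe set of highest mean log2 signal over the 24 arrays. The pattern found 40 of 9155 symbols. One of them, PSME3IP1, matches by name only and was kept out of all counts, which left 39 proteasome genes. All 40 were in the set of 15613 probe sets tested. PSMA2, PSMA8, PSMB11, PSMD3, PSMD7, PSMD8, PSMD12, PSME3 and PSMG4 were not analysed here.

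The lambs were Dorset, Suffolk and Rambouillet crosses that segregate the callipyge allele, which enlarges certain muscles after birth only when it comes from the sire alone. CN is the heterozygote that inherited it from the father and carries the trait, NC inherited it from the mother, CC has it from both parents and NN is the wild type. Longissimus dorsi (LD), a muscle of the back, was taken from CC, CN, NC and NN at T0, within 5 days of birth, and at T12, at 11 to 12 weeks. Supraspinatus (SS), a shoulder muscle that does not enlarge in callipyge sheep, came from CN and NN at T12. The muscle coded SM, for which the labels give conflicting names, and semitendinosus (ST), a muscle of the hind limb, came from NN at T12. Every group had 2 technical arrays on a bovine GeneChip, so sheep transcripts were read by bovine probes. The protocol speaks of 8 males in all for LD, with 4 of each genotype, while LD was arrayed in 4 genotypes. The number of animals behind an array is therefore not known here, so animal and genotype cannot be told apart within a group.

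The proteasome is the protease that breaks down proteins tagged with ubiquitin. Its 20S core is a barrel of outer rings of alpha subunits and inner rings of beta subunits, of which PSMB5, PSMB6 and PSMB7 cut peptide bonds. The 19S cap recognises, unfolds and feeds in the substrate, with a ring of ATPases (PSMC genes) and a set of non-ATPase subunits (PSMD genes). Interferon induces PSMB8, PSMB9 and PSMB10, which replace the catalytic subunits in the immunoproteasome, and the activator PSME1-PSME2. In muscle the ubiquitin-proteasome pathway degrades most myofibrillar protein and is drawn on in atrophy and in growth. For this account 26 genes, the 6 alpha, 4 structural beta, 3 catalytic beta, 6 ATPase and 7 non-ATPase subunits, are called the constitutive subunits; this union was formed after the values were seen.

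Values are log2 of the MAS5 signal, averaged over the 2 arrays of a group, and differences are log2 differences with the standard error (SE) of a limma fit on the 12 group values. A difference was called when its Benjamini-Hochberg adjusted p over all tested probe sets was under 0.05. Arrays had been scaled to a trimmed mean signal of 200.1, with a median signal of 47.35 to 59.65. As a check of the labelled tissue, 10 measured muscle markers of 11, ACTA1, CKM and MYH1 among them, were each above the array median on all 24 arrays. Most proteasome genes gave strong signals: 38 of the 39 lay above the array median on every array, and PSMD9, an assembly chaperone of the 19S cap, did so on 22 of 24. Signals of different probe sets are not compared with each other as amounts of RNA. The gap between the 2 arrays of a group, taken as the median over groups, ran from 0.071 for PSMC5 to 0.42 for PSMD9.

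Over the 12 groups the proteasome genes spanned less than most probe sets. The distance from the lowest to the highest group was 0.34 to 1.77 on the log2 scale, with a median of 0.78 against 1.31 for all tested probe sets, most of which were dimmer. PSMB6, PSMA6 and PSMB4 were the steadiest, at 0.34, 0.34 and 0.35. PSMD10 (gankyrin, an assembly chaperone of the 19S ATPases) had the widest span at 1.77, followed by PSMD6, a non-ATPase subunit of the 19S cap, at 1.42 and PSME4 (PA200, an activator that caps the 20S core) at 1.35.

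The constitutive subunits varied together across groups. Their mean pairwise Pearson correlation over the 12 groups was 0.42, against 0.17 for all 39 genes and 0.0040 for 7466 tested symbols. The union was formed after the values were seen and leaves out genes that ran otherwise, so part of this contrast is built in. The 7466 symbols were not matched for brightness. These points also share arrays and scaling, so the values are a description and not a test. LD of CN at T0 was the highest group for every constitutive subunit but PSMA3, PSMA6, PSMA7, PSMC2 and PSMD4. The correlation without that group, which is also the CN group compared at birth below, was not computed. Closest to the mean of the other constitutive subunits were PSMD1, the large scaffold of the 19S cap, with r = 0.89, PSMB5 with r = 0.85 and PSMB7 with r = 0.84. PSMD4, a ubiquitin receptor of the cap, did not follow them (r = -0.0625), and PSMA3 of the alpha ring followed weakly (r = 0.17).

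The inducible subunits formed a second pattern. PSMB8 and PSMB10 correlated at r = 0.82 over the 12 groups, PSMB8 and PSMB9 at 0.79 and PSMB9 and PSMB10 at 0.69. The mean of the 3 ran opposite to the mean of the constitutive subunits (r = -0.58), a union formed after the values were seen. LD of CN at T0 was the extreme group of both, with each gene set to mean 0. It had the highest constitutive mean (0.34) and the lowest inducible mean (-0.63), and r without that group was not computed. PSME1 and PSME2, the subunits of one activator, correlated at 0.66. In the sheep assembly ARS-UI_Ramb_v3.0 (RefSeq) all 39 genes were found, on 18 chromosomes. PSMB8 and PSMB9 lie there in one run with the peptide transporter genes, in the order TAP2, PSMB8, TAP1 and PSMB9 with no coding gene between neighbours, and PSME1 and PSME2 have 1 coding gene between them. PSMB10, which followed PSMB8 most closely, is not among the genes of that run.

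**Figure D1:**
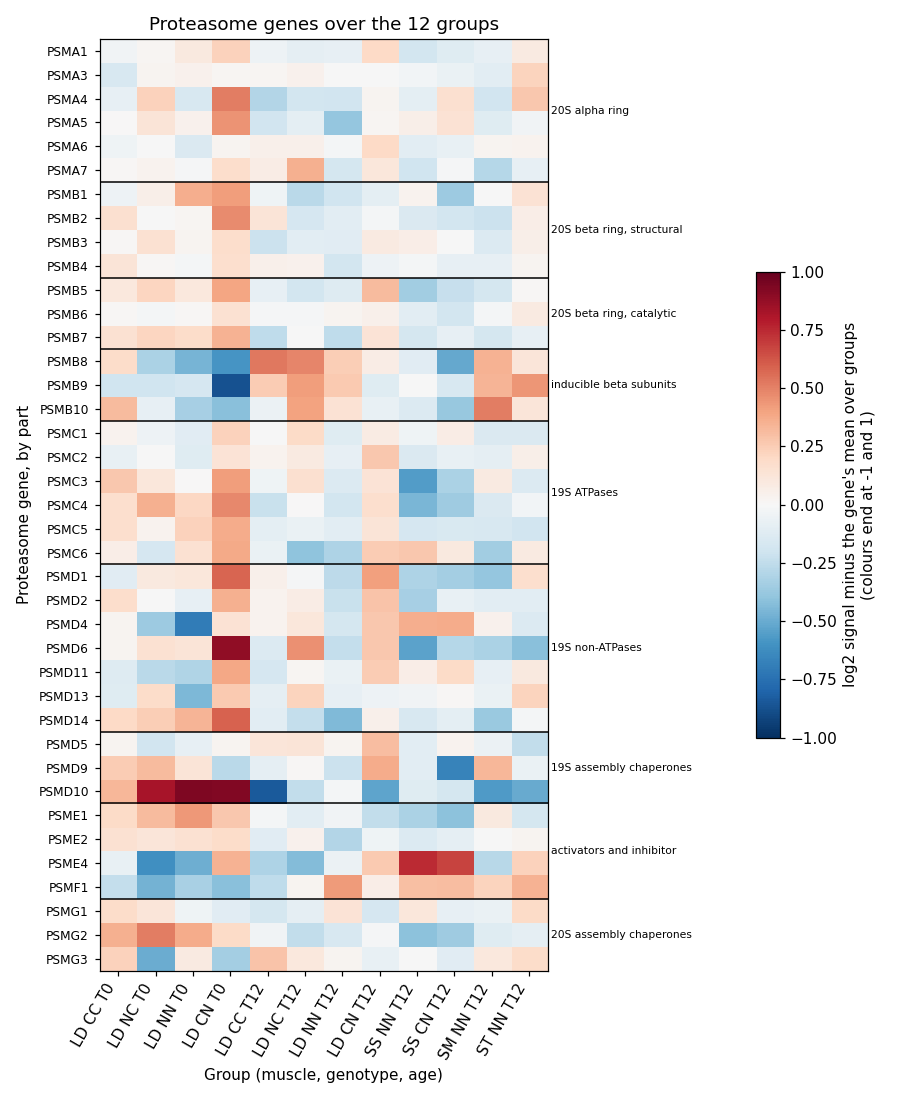
Log2 signal of the 39 proteasome genes (rows, by role) in the 12 groups (columns), each gene set to mean 0 over the groups; red is above the gene's mean, blue below, and colours end at -1 and 1. The LD CN T0 column is red across nearly all constitutive subunits and blue for PSMB8, PSMB9 and PSMB10.

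The median of the constitutive subunits, each set to mean 0, ordered the groups. LD of CN at T0 stood at 0.36 and LD of CN at T12 at 0.13, the highest 2 of the 12. All other groups lay between -0.15 (LD of NN at T12) and 0.036 (LD of NC at T0). The SD of this median between CC, NC and NN within an age was 0.052, from 3 group values at each age. Neighbours such as CC, NC and NN at T0 (0.022, 0.036 and 0.024) did not differ beyond it. At T12 these genotypes spread more, at -0.044 in CC, 0.00017 in NC and -0.15 in NN. NC and NN, both without the trait, were thus farther apart at T12 than CN and NC. Both LD CN groups lay above the other LD groups of their age by more than that SD. It does not measure the gap between arrays. The median over members of array 1 minus array 2 was -0.177 in LD of CN at T0. At T12 it was 0.131 in LD of CN and 0.16 in LD of NC. The T12 values of CN (0.13) and NC (0.00017) were about as far apart as such gaps.

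At birth, all 26 constitutive subunits had a CN signal above the mean of CC, NC and NN in LD. The median difference was 0.28, with a range of 0.047 to 0.78, while the median of all tested probe sets was -0.020 and 48% of them were above 0. Among 1611 probe sets as bright as the middle of the proteasome genes (mean log2 signal of 9.35 to 11.68), the median was 0.020 and 52.3% were above 0. None of the 39 genes was called by limma, where 0.173% of all tested probe sets were called. At an unadjusted p under 0.05 there were 8 of 39 genes, beside 11.7% of all tested probe sets. In whole muscle, fewer cells of a type and less RNA per cell cannot be told apart. The p-values measure only the spread between group values, here 1 CN value against 3.

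The non-ATPase subunits of the 19S cap had the largest differences at T0, with a median of 0.49 over 7 genes. PSMD11, a scaffold subunit that helps hold cap and core together, had signals of 5930.8 and 6706.9 on the 2 CN arrays. The other T0 arrays gave 4439.8 and 4383.0 in CC, 3990.8 and 4007.0 in NC, and 3853.5 and 3984.4 in NN. Both CN arrays lay above all 6 others. The difference was 0.62 ± 0.14 (SE, limma adjusted p = 0.0834), and 0.53 to 0.71 over the 24 fits without 1 array. It passed without CC among the comparators (limma adjusted p = 0.0397), the genotype with the signals nearest to CN. In that fit 271 of 15613 probe sets were called at T0, beside 27 with CC kept. Without NC among the comparators, 0 of 15613 probe sets were called at T0.

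PSMD6 read 1721.4 and 1528.1 in CN at T0 while the 6 other arrays read 816.2 to 1043.5, with no overlap and a difference of 0.78 ± 0.24 (limma adjusted p = 0.194). PSMD1 had 1674.6 and 1549.3 against 973.8 to 1287.4, a difference of 0.55 ± 0.17 (adjusted p = 0.224). PSMD14, the deubiquitinase of the cap, was at 0.32 and PSMD2, a scaffold subunit, at 0.32. The 6 ATPases lay between 0.20 and 0.36, led by PSMC6, whose second probe set gave 0.0016.

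In the 20S core at T0 the alpha subunits had a median of 0.18 and the structural beta subunits of 0.21. PSMA4, an alpha subunit, had CN signals of 2370.7 and 2680.5 against 1469.5 to 2224.6 elsewhere (0.52 ± 0.17, limma adjusted p = 0.24). PSMB2 was at 0.41. The catalytic subunits PSMB5, PSMB6 and PSMB7 were at 0.25, 0.15 and 0.16, each below the median of all constitutive subunits.

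At 12 weeks, 23 of the 26 constitutive subunits were above 0 in CN, with a median difference of 0.24 and a range of -0.064 to 0.51. The median of all tested probe sets was -0.054 with 44.7% above 0, and that of the 1611 probe sets of like brightness was 0.037 with 56% above 0. PSMA3, PSMB4 and PSMD13 were the 3 below 0, at -0.020, -0.019 and -0.064. None of the 39 genes was called by limma, beside 0.179% of all tested probe sets, and 5 of 39 had an unadjusted p under 0.05, beside 10% of all. The medians with 1 of the CN arrays at T12 left out were 0.19 and 0.31, and 19 to 25 subunits were above 0 over all fits without 1 array.

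PSMB5, which carries the chymotrypsin-like activity of the core, had the smallest p at T12. Its CN signals in LD were 4010.2 and 3872.9. The other arrays read 3092.3 and 2882.4 in CC, 3031.9 and 2560.4 in NC, and 2921.4 and 2852.8 in NN, all below both CN arrays. The difference was 0.45 ± 0.13 (SE; limma adjusted p = 0.237). The other catalytic subunits overlapped more with the comparators: PSMB7 was at 0.30, and PSMB6 at 0.048 with CN arrays of 6391.9 and 5850.3 around those of NN (6153.3 and 5882.9).

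In the 19S cap at T12 all 6 ATPases and 6 of 7 non-ATPase subunits were above 0. PSMC6 was at 0.51 ± 0.18 (SE; limma adjusted p = 0.329), but its second probe set gave -0.40 (adjusted p = 0.684), so its direction rests on the probe set. PSMD1 read 1411.6 and 1448.7 in CN and 843.1 to 1167.3 on the 6 other arrays (0.48 ± 0.17, adjusted p = 0.348). PSMD11 was at 0.33, PSMD2 at 0.32 and PSMD14 at 0.31. Of the 4 second probe sets that were tested, PSMB2, PSMC2 and PSMD4 had the sign of the brighter one at both ages.

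The order of the genotypes was then compared between the ages. The CN group value lay above all 3 other genotypes for 28 of 39 genes at T0 (25.7% of all tested probe sets) and for 21 of 39 at T12 (22.6%). It did so at both ages for 19 genes, or 48.7%, against 7.39% of all tested probe sets, and 17 of the 19 were constitutive subunits. The other 2 were PSME4 and PSMD5, an assembly chaperone of the 19S cap. Both CN arrays lay above all 6 others for 18 genes at T0 (8.45% of all) and 9 at T12 (5.14%). PSMA1, PSMA4, PSMB5, PSMC2, PSMC5, PSMD1, PSMD11, PSMD14 and PSME4 make up the 9. The CN differences at T0 and T12, which share no array, correlated across the 39 genes at r = 0.62 and across all tested probe sets at r = 0.072. Genes are not independent, and these are descriptions. Of the tested probe sets 94.2% were dimmer than the median proteasome gene. No background of like brightness was made for this r or for the shares in this paragraph.

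**Figure D2:**
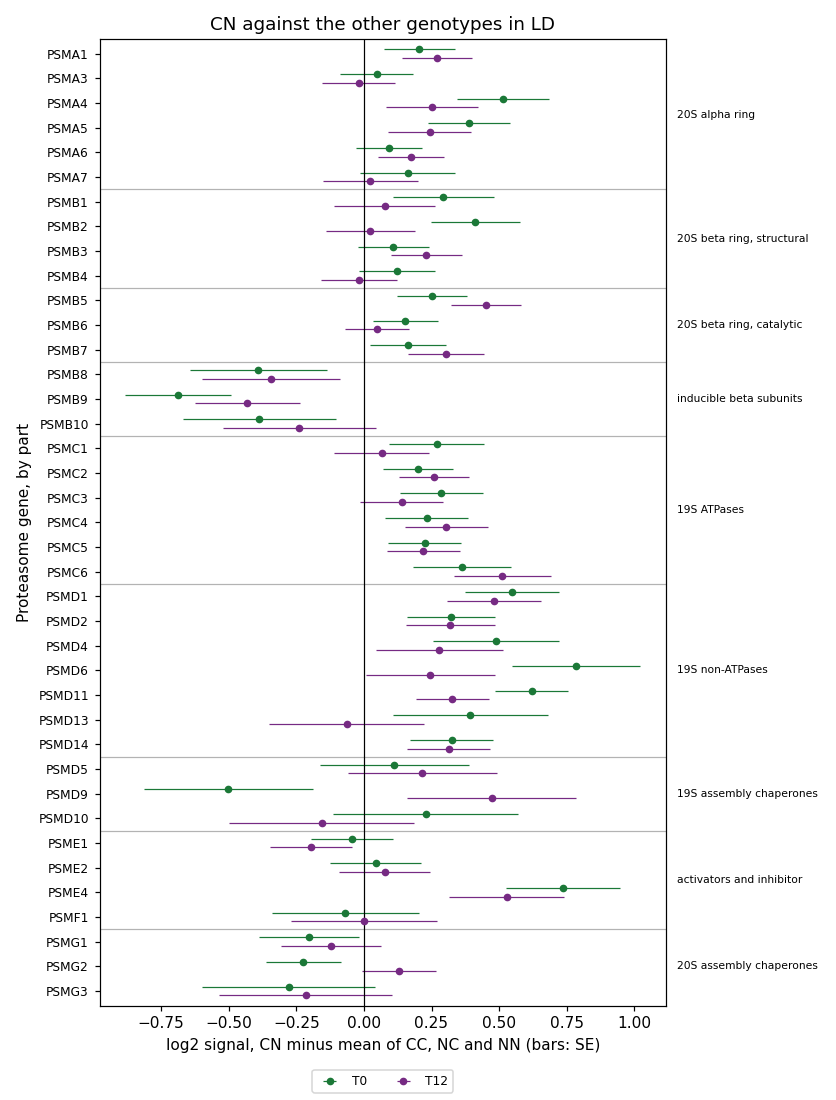
Log2 difference between CN and the mean of CC, NC and NN in LD (horizontal axis) for each proteasome gene (rows, by role), at T0 in green and T12 in purple, with SE bars. All 26 constitutive subunits are to the right of 0 at T0 and 23 at T12, while PSMB8, PSMB9 and PSMB10 are to the left at both ages; no difference was called.

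The inducible subunits had CN differences below 0. The CN group value was below all 3 other genotypes at both ages for 3 of 39 genes, namely PSMB8, PSMB9 and PSMB10. This share of 7.69% is under the 12.1% of all tested probe sets, so the count does not set the members apart. Their mean log2 signals of 7.78 to 8.51 lie under the brightness range of 9.35 to 11.68 used above. No background of like brightness was made for them. PSMB9 read 131.4 and 165.6 in CN at T0 and 205.9 to 270.4 on the 6 other arrays, a difference of -0.69 ± 0.20 (SE; limma adjusted p = 0.171). At T12 it had 245.4 and 252.3 against 267.0 to 397.4, a difference of -0.43 ± 0.20 (adjusted p = 0.5). Both CN arrays of PSMB9 were thus below all others at each age, though the gap at T12 was narrow.

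PSMB8 read 221.8 and 263.8 in CN at T0. CC gave 348.2 and 490.5, NC 298.8 and 285.6, and NN 242.9 and 286.9, so CN and NN overlapped (-0.39 ± 0.25, limma adjusted p = 0.638). At T12 the CN arrays read 386.0 and 380.3 and all 6 others 403.4 to 531.0 (-0.34 ± 0.25, adjusted p = 0.74). PSMB10 was the least certain, with a T12 group signal of 208.5 in CN beside 210.7 in CC, and with CN arrays of 122.9 and 219.6 at T0 and of 293.4 and 148.2 at T12. Its T12 difference of -0.24 ± 0.28 (adjusted p = 0.854) became 0.25 without the second CN array.

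**Figure D3:**
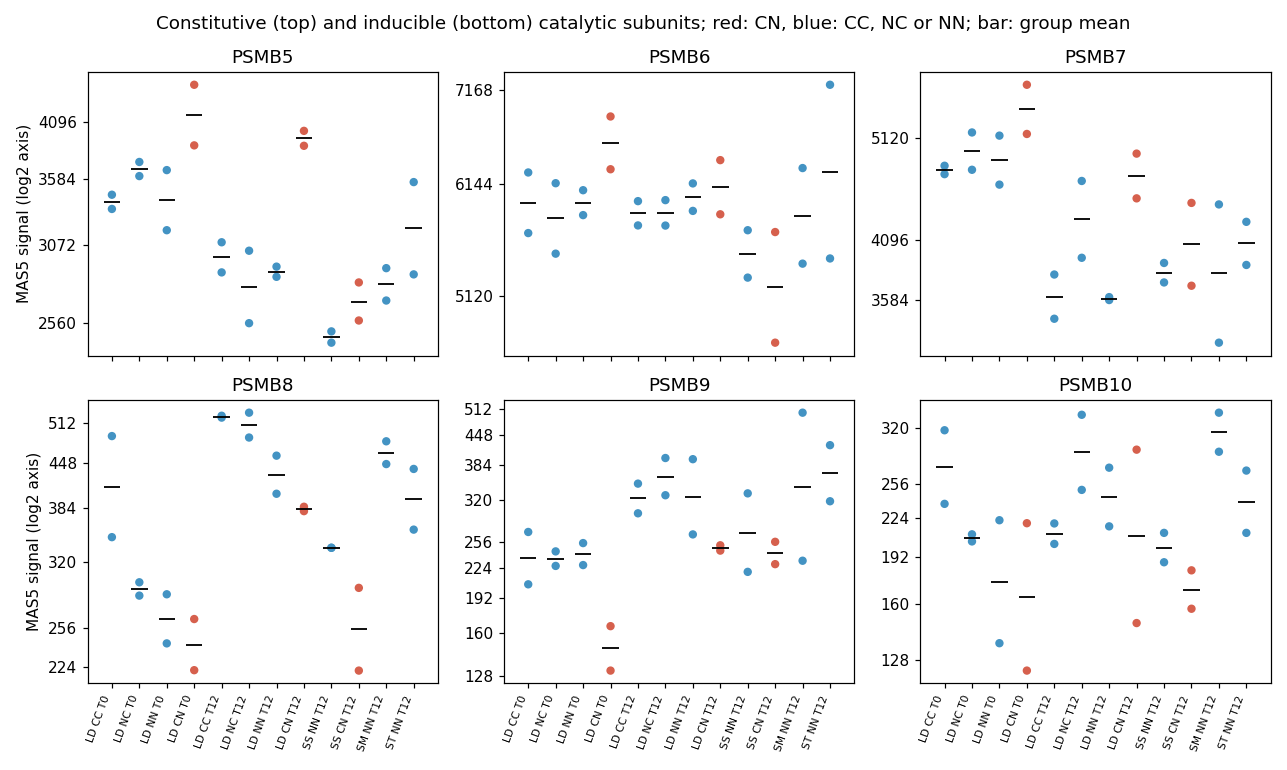
MAS5 signal on a log2 axis for the constitutive catalytic subunits PSMB5, PSMB6 and PSMB7 (top) and the inducible PSMB8, PSMB9 and PSMB10 (bottom) in the 12 groups; dots are arrays (red CN, blue other genotypes) and bars group means. PSMB5 has both LD CN arrays above the other LD arrays at each age, and PSMB9 has both below.

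The assembly chaperones and regulators did not share a direction. The 20S chaperones PSMG1, PSMG2 and PSMG3 were at -0.20, -0.22 and -0.28 at T0, and at -0.12, 0.13 and -0.21 at T12. PSMD9 was at -0.50 at T0 (limma adjusted p = 0.615) and 0.47 at T12, on signals of 46.5 to 117.6 in LD that are close to the array medians. PSME1 was at -0.043 and -0.20 and PSME2 at 0.044 and 0.076. PSMF1, an inhibitor of the 20S core, was at -0.069 and 0.00064.

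PSME4 had the largest CN difference of the activators and the inhibitor at each age, while over the 12 groups it did not follow the mean of the constitutive subunits (r = 0.057, against 0.68 for PSME2). Its CN arrays at T0 read 2534.1 and 2315.7, with 1803.3 and 1811.8 in CC, 1198.6 and 1303.8 in NC, and 1359.0 and 1366.4 in NN. At T12 CN read 2467.4 and 2117.9, with 1599.8 and 1479.0 in CC, 1364.8 and 1461.9 in NC, and 1907.6 and 1765.5 in NN. CN lay above the others without overlap at both ages, by 0.74 ± 0.21 (SE; limma adjusted p = 0.173) and 0.53 ± 0.21 (adjusted p = 0.416).

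Whether the CN difference itself changed with age was tested as an interaction, and none of the 39 genes was called (0% of all tested probe sets). None of the 39 had an unadjusted p under 0.05 either, beside 8.94% of all. The median change of the constitutive subunits from T0 to T12 was -0.086. All 7 non-ATPase subunits had a smaller CN difference at T12 than at T0, with a change of -0.54 ± 0.34 for PSMD6 (limma adjusted p = 0.708) that was -0.89 without the first CN array at T12 and -0.19 without the second, and PSMD9 had the largest positive change, 0.97 ± 0.44 (adjusted p = 0.555).

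Markers of other cells and array measures moved with these groups. Summed fibroblast signal, from 7 of 7 markers, was 47739 to 52025 in CN at T0 against 61188 to 72795 in the others, and 31266 to 35751 at T12 against 41614 to 56500. Summed endothelial signal (7 of 7) was 1971.1 to 2027.9 against 2291.2 to 2665.3 at T0, and 2328 to 2391.2 within 2299 to 3052.6 at T12. The immune sum, from 12 of 14 markers, was 1028.6 to 1061.1 in CN at T0 within 902.2 to 1206.4, and 1093.6 to 1217.3 at T12 below 1471.4 to 1621.8. Red cell signal (4 of 5 markers) was 133.6 to 140.1 in CN at T0 below 185.8 to 324.8, and nerve and Schwann cell signal (2 of 5) was 243.3 to 247.2 at T12 below 263.7 to 492.1. Adipocyte signal (4 of 5) overlapped the others at both ages. Skeletal muscle markers were lower in CN, opposite to the constitutive subunits, for 9 of 10 at each age, with a median difference of -0.23 at T0 and -0.11 at T12 and 2 called lower at T12. Their sum was 197550 to 235570 in CN against 226900 to 268740 at T0, and 234910 to 274420 against 266010 to 325030 at T12, with overlap at both ages. The immune marker PTPRC passed the array median on 2 of 24 arrays, and no marker of these lists was at 0. The log2 ratio of 3' to 5' signal of GAPDH, a measure of RNA quality, was -0.033 and 0.085 in CN at T12, 0.066 and 0.043 in CC and 0.19 to 0.25 in NC and NN. At T0 it was 0.230 and 0.225 in CN within 0.13 to 0.31 in the others. The median signal of the whole array was lower in CN without overlap at both ages, at 48.05 and 47.35 against 50.0 to 52.8 at T0 and at 49.6 and 51.6 against 53.5 to 57.9 at T12. The part of these measures in the proteasome differences was not tested.

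SS was compared between CN and NN at T12 as a muscle without enlargement. None of the 39 genes was called by limma (0% of all tested probe sets), and none had an unadjusted p under 0.05, beside 4.17% of all. Of the 26 constitutive subunits 18 were above 0 with a median of 0.060, beside 49.8% of all tested probe sets. Without the second CN array of SS that count was 9 and the median -0.032, and without the first NN array they were 11 and -0.016. The inducible subunits PSMB8, PSMB9 and PSMB10 were at -0.40, -0.15 and -0.24, and both CN arrays of PSMB8 (293.2 and 221.5) lay below both NN arrays (335.9 and 335.9). Immune signal was lower in CN of SS, 1134 to 1288.7 against 1508 to 1523, though 4 of 11 tested immune markers were higher. Adipocyte (545.4 to 711.3 against 718.5 to 739) and nerve and Schwann cell signal (220.9 to 271.8 against 289.6 to 369.7) were lower too. Red cell (83.7 to 97.5 against 28.2 to 75.5) and muscle signal (285920 to 308030 against 280090 to 282360) were higher. The endothelial and fibroblast sums overlapped. The part of these markers in SS was not tested. PSMB5, PSMB6 and PSMB7 were at 0.12, -0.079 and 0.090.

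The difference between the CN effect in LD at T12 and that in SS had a median of 0.17 over the constitutive subunits. CN was set against CC, NC and NN in LD but against NN alone in SS. None of the 39 genes was called (0% of all tested probe sets), and 1 of 39 had an unadjusted p under 0.05, beside 4.96% of all. PSMC6 was that gene, at 0.69 ± 0.28 (SE, limma adjusted p = 0.946). Its second probe set gave -0.40 for CN in LD at T12, so the LD part rests on the probe set. PSME4 was at 0.60 ± 0.34 (adjusted p = 0.998), with SS signals of 2984.9 and 3100.5 in CN and 3327.2 and 3065.7 in NN. A different CN effect in the 2 muscles was therefore not shown for any proteasome gene.

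Between birth and 12 weeks in LD of CC, NC and NN, 8 of the 39 genes were called, 2 higher and 6 lower at T12. Of all tested probe sets 11.7% were called, 5.92% higher and 5.81% lower. PSMB8 and PSMB9 rose, by 0.62 ± 0.18 (SE; limma adjusted p = 0.0494) and 0.50 ± 0.14 (adjusted p = 0.0399), with group signals of 413.3, 292.1 and 264.0 for PSMB8 in CC, NC and NN at T0 and of 523.8, 509.1 and 430.3 at T12. All 3 groups at T12 lay above all 3 at T0 for both genes. These were the only 2 of 39 genes with that order, which 17.2% of all tested probe sets had. PSMB10 was at 0.20 and did not pass.

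The genes that fell came from different parts of the complex. PSMG2, which with PSMG1 starts the assembly of the alpha ring, fell by 0.56 (SE 0.10, adjusted p = 0.00488). Its group signals were 4966, 5548 and 5041 in CC, NC and NN at T0 and 3797, 3291 and 3486 at T12. PSMD14 fell by 0.52 (SE 0.11, adjusted p = 0.0111), from 3145, 3255 and 3460 to 2552, 2316 and 2023. PSMD10 fell by 1.07 (SE 0.24, adjusted p = 0.0159), from 216.8, 305.2 and 328.9 to 96.13, 144.8 and 169.5. The ages did not overlap in these 3 genes.

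The trypsin-like catalytic subunit PSMB7 fell by 0.35 (SE 0.10, limma adjusted p = 0.0421), the ATPase PSMC4 by 0.38 (SE 0.11, adjusted p = 0.0469) and the activator subunit PSME1 by 0.37 (SE 0.11, adjusted p = 0.0492). Of the other catalytic subunits, PSMB5 was at -0.27 with no overlap between ages and PSMB6 at 0.00046. PSME2, the partner of PSME1, was at -0.26. In 14 of the 39 genes all 3 groups at T12 lay below all 3 at T0, or 35.9%, against 14.7% of all tested probe sets, and 9 of the 14 were constitutive subunits. The constitutive subunits as a list had a median of -0.10 with 9 of 26 above 0, where all tested probe sets had a median of 0.056 with 54.9% above 0, and those of like brightness -0.033 with 46.9% above 0.

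These calls differ in how firmly they stand. PSMD14 and PSMG2 passed in all 24 fits without 1 array, and PSMD10 in all but the fit without the first LD NC array at T12. The others lay near the threshold: PSMB8 was lost in 11 of these fits, PSME1 in 10, PSMC4 in 9, and PSMB7 and PSMB9 in 7 each. PSMB7, PSMC4 and PSME1 were also lost after quantile normalization, which left 2 higher and 3 lower. PSMB8 and PSMB9 were lost without the filter on low signal, which left 0 higher and 3 lower. The count was 3 to 5 in each fit that left out an NN array at either age, a CC array at T12, the first CC array at T0 or the second NC array at either age, and 0 without an intensity trend in the variance. Without the trend 239 of 15613 probe sets were called, beside 1831 with it, so that drop was not particular to the proteasome genes. Summed immune signal in CC, NC and NN was 902.2 to 1206.4 at T0 and 1471.4 to 1621.8 at T12, in the direction of PSMB8 and PSMB9. Summed fibroblast signal was lower at T12, 41614 to 56500 against 61188 to 72795 at T0, and so was red cell signal, 81.2 to 170.6 against 185.8 to 324.8, in the direction of the 6 genes that fell. All 10 measured muscle markers had a difference above 0, with a median of 0.17 and 1 called. The median signal of the whole array was also higher at T12 in these genotypes, 53.5 to 57.9 against 50.0 to 52.8 at T0. The part of these markers and of the array median was not tested.

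**Figure D4:**
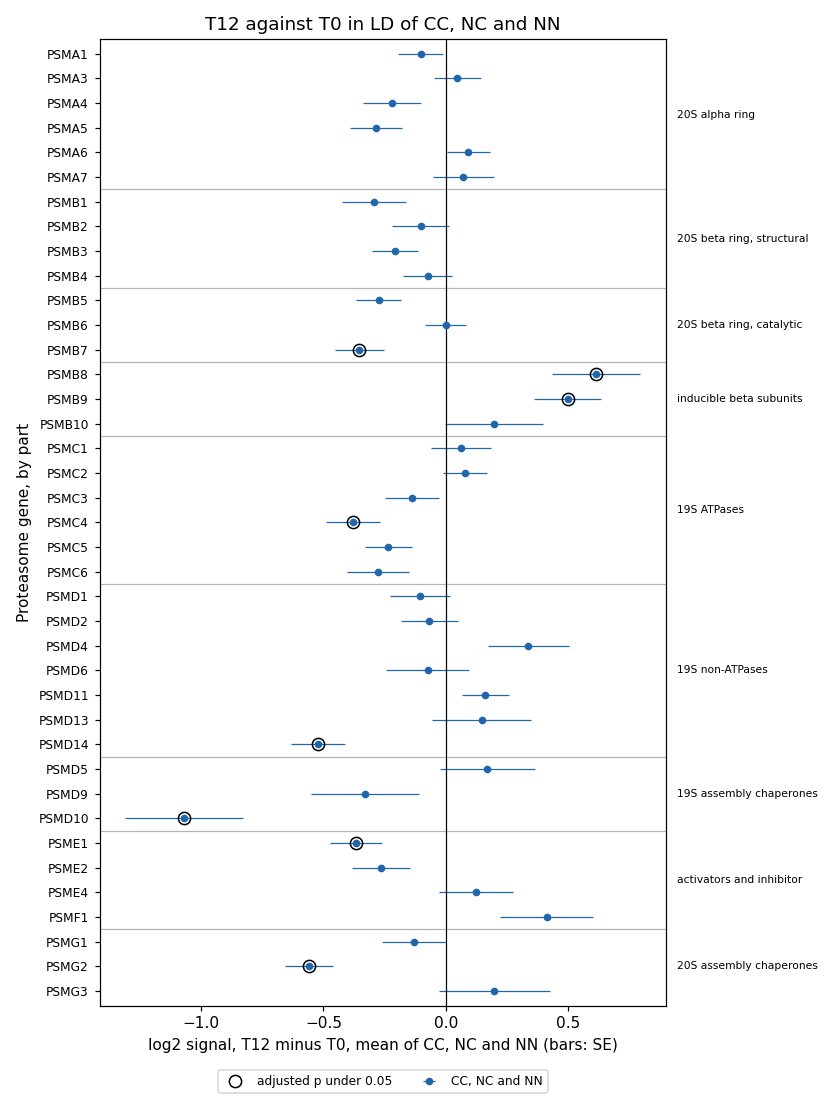
Log2 difference between T12 and T0 in LD, as the mean of CC, NC and NN (horizontal axis), for each proteasome gene (rows, by role) with SE bars; circles mark an adjusted p under 0.05. PSMB8 and PSMB9 are circled at 0.62 and 0.50, and 6 genes are circled below 0, with PSMD10 farthest at -1.07.

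Among muscles without the trait at T12, PSME4 was the one gene called. It was higher in SS of NN than in LD of CC, NC and NN by 1.01 ± 0.21 (SE; limma adjusted p = 0.029), 1 of 39 genes beside 2.97% of all tested probe sets, 1.43% higher in SS. Its SS arrays read 3327.2 and 3065.7, against 1364.8 to 1907.6 on the 6 LD arrays, 1511.6 and 1643.0 in SM and 2365.6 and 2111.6 in ST. SS stood above every other group of the series, with group signals of 3194 in NN and 3042 in CN. At T12 LD of CN (2286) and ST (2235) came next and their arrays overlapped, followed by LD of NN (1835), SM (1576), LD of CC (1538) and LD of NC (1413). The call was lost without the second LD NC array at T12 (adjusted p = 0.0505) and without an intensity trend. The F test over the 4 muscles called none of the 39 genes (1.29% of all tested probe sets), with F = 8.82 and adjusted p = 0.108 for PSME4.

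Other measures set SS of NN apart from these LD groups as well. Adipocyte signal was 718.5 to 739 in SS against 218.5 to 585.4 in LD, with 3 of 3 tested markers higher and 1 called. Endothelial signal was 1919.9 to 2001.7 against 2299 to 3052.6, with 5 of 5 lower and none called, and red cell signal was 28.2 to 75.5 against 81.2 to 170.6. Of the 10 muscle markers 1 was called higher and 2 lower, while the fibroblast, immune, nerve and muscle sums lay within the LD range. GAPDH signal at the 3' end relative to the 5' end, on the log2 scale, was 0.024 and 0.058 in SS, 0.066 and 0.043 in LD of CC and 0.19 to 0.25 in LD of NC and NN. The part of these measures in the PSME4 difference was not tested.

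The ATPase PSMC3 went the other way, with SS arrays of 3512.6 and 4242.6 against 4785.2 to 7024.5 in LD (-0.55 ± 0.15, limma adjusted p = 0.0922). Over the fits without 1 array its difference was -0.69 to -0.42. PSMC6 was at 0.53 ± 0.18 (adjusted p = 0.161) and PSMD6 at -0.56 ± 0.24 (adjusted p = 0.278). Against the mean of SM and ST, SS had PSME4 at 0.77 ± 0.22 (adjusted p = 0.186) and PSMC3 at -0.53 ± 0.16 (adjusted p = 0.21). None of the 39 genes was called there, beside 0.999% of all tested probe sets, and 3 had an unadjusted p under 0.05, beside 12.1% of all. The mean of SM and ST against LD gave no call (0.0448% of all) and no gene at an unadjusted p under 0.05 (7.33% of all), with a median of 0.037 over the constitutive subunits. These comparisons share the SS or the LD values.

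**Figure D5:**
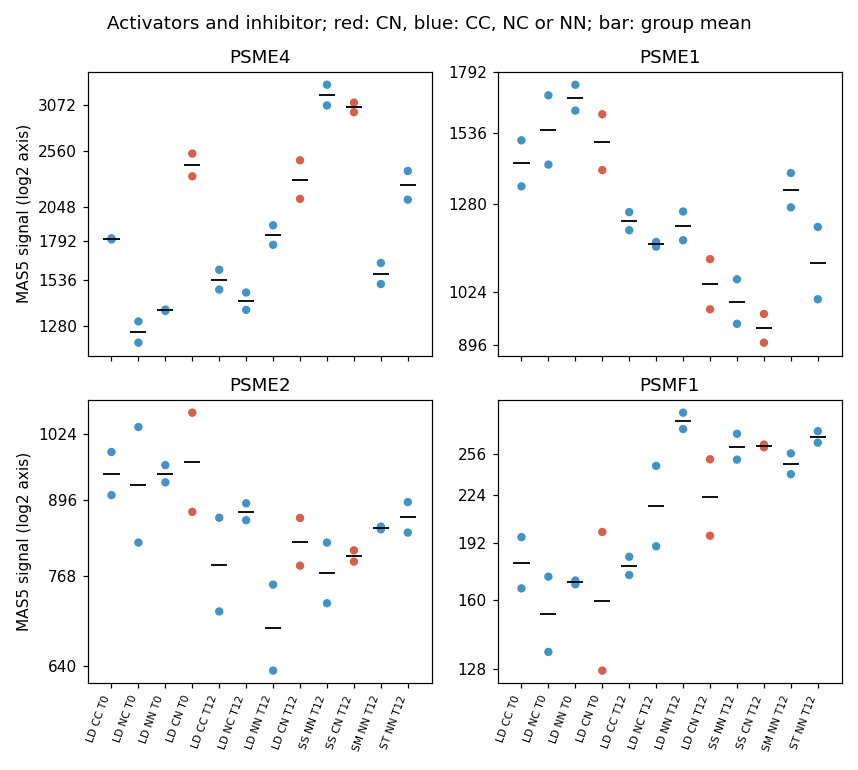
MAS5 signal on a log2 axis for the activator PSME4, the activator subunits PSME1 and PSME2 and the inhibitor PSMF1 in the 12 groups; dots are arrays (red CN, blue other genotypes) and bars group means. PSME4 is highest in both SS groups and, within LD, in CN at each age.

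The activator subunits completed the picture across groups. PSME1 group signals in CC, NC, NN and CN of LD were 1421, 1547, 1679 and 1500 at T0 and 1227, 1157, 1212 and 1045 at T12. SS gave 1000 in NN and 934.4 in CN, SM 1327 and ST 1103. PSME2 ran from 924.2 to 967.3 in LD at T0 and from 692.3 to 875.1 at T12, with 773.3 and 800.2 in SS, 846.9 in SM and 865.3 in ST. PSMF1 read 152.8 to 180.4 at T0 and 178.6 to 284.8 in LD at T12, a difference of 0.41 ± 0.19 in CC, NC and NN (limma adjusted p = 0.2).

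Within LD, the mutation without the trait went with no call, as CN had none against the other genotypes. NC against NN and CC against NN over both ages each called 0 of 39 genes (0.0128% of all tested probe sets each), with 0 and 3 at an unadjusted p under 0.05 (4.23% and 5.46% of all). The median of the constitutive subunits was 0.12 in NC, with 20 of 26 above 0, and 0.060 in CC, with 16 of 26 above 0. Of all tested probe sets 49.4% and 50.9% were above 0. All 7 non-ATPase subunits were above 0 in NC and 6 of 7 in CC. Without the second NN array at T12 the medians were 0.062 and 0.0096. Without the first NC array at T12 the NC median was 0.062. PSMD10 in CC was at -0.71 ± 0.21 (SE; limma adjusted p = 0.75), or -0.42 without the first CC array at T12, PSMB8 in CC at 0.47 ± 0.18 (adjusted p = 0.867), and PSMD4 in CC at 0.47 ± 0.16 (adjusted p = 0.855). PSMD13, a non-ATPase subunit, had the largest value in NC at 0.47 ± 0.24 (adjusted p = 0.995).

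The genes around the proteasome were read from lists of the pathway. In CN against the other genotypes in LD none of their tested members was called at either age, where 0.173% of all tested probe sets were called at T0 and 0.179% at T12. The shares above 0 among all tested probe sets were 48% and 44.7%, beside which the counts of members above 0 stand. Of 8 other proteasome genes (assembly factors, regulators and cap-bound proteins), 7 were above 0 at T0 and 6 at T12. NFE2L1, the transcription factor that drives proteasome genes when the complex is short, was at 1.14 ± 0.31 at T0 (limma adjusted p = 0.152) and 0.036 at T12, and the core maturation protein POMP at 0.31 and 0.00019. Of 16 ubiquitin, E1 and E2 genes, 9 and 13 were above 0, and of 11 shuttle and segregase genes, 8 and 10. The chaperones had 12 and 14 of 18 above 0, with the chaperonin subunit CCT5 at 0.72 ± 0.15 at T12 (adjusted p = 0.0842).

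Of the 9 interferon and antigen presentation genes, 4 at T0 and 2 at T12 were above 0 in CN. B2M, the light chain of class I molecules, was at -0.40 (adjusted p = 0.36) and -0.44 (adjusted p = 0.36) by limma. TAP2, next to PSMB8, was at -0.45 and -0.12, and TAP1 at -0.16 and 0.16. The 8 muscle ubiquitin ligases of the list had 4 and 5 above 0. FBXO32 (atrogin-1), a ligase of muscle atrophy, was at 2.62 ± 0.89 at T0 (adjusted p = 0.263) and 0.90 at T12.

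With age the surrounding lists moved in both directions, by limma at an adjusted p under 0.05, where 5.92% of all tested probe sets were called higher and 5.81% lower. B2M and TAP2 rose by 0.84 and 0.55, beside PSMB8 and PSMB9, while PDIA3 and CALR, chaperones of class I loading in the endoplasmic reticulum, fell by 0.62 and 0.91. In the shuttle list 3 of 11 rose and none fell (5.92% and 5.81% of all tested probe sets), namely RAD23B (0.62), UBQLN2 (0.69) and UBQLN4 (1.14), which carry ubiquitinated proteins to the proteasome. Of 16 ubiquitin, E1 and E2 genes UBE2B and UBE2G1 rose, and UBA1 and UBE2K fell. Of 18 chaperones 7 fell, including CCT2, CCT3 and CCT5 of the chaperonin ring, and 1 rose, HSPA1A, by 1.03 (5.81% and 5.92% of all tested probe sets). The ligase genes FBXO32 (2.69), ASB2 (1.03) and KLHL41 (0.37) rose. TXNL1, a thioredoxin-like protein bound to the 19S cap, rose by 0.85, and AKIRIN2, which brings proteasomes into the nucleus, fell by 0.46. In SS of NN against LD, the difference was -1.23 for UBXN1 and 1.08 for the co-chaperone BAG3, both called.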

How the data were processed

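The deposited values are linear MAS5 intensity per probe set, made by the authors with a version not given in the sources used here, per the submitters' processing notes. Detection calls were not used. Values at or below 1 (5477 of 579072) were set to 1 and log2 was taken. The 2 technical arrays of a group were averaged to 1 value.

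The 12 group values, in 8 cells, were fitted by limma 3.58.1 in R 4.3.3. Tests were two-sided, eBayes used a trend on intensity, and p was adjusted by Benjamini-Hochberg. CC, NC and NN of LD at one age were 3 values of one cell, which leaves 4 residual degrees of freedom (prior 6.88). Groups with 1 value are assumed to vary like those 3 genotypes. For NC and CC against NN, a fit to the 8 LD values had genotype and age as terms, with 3 residual and 7.18 prior degrees of freedom.

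Of 24128 probe sets 112 controls were left out, and 15613 were tested, those that passed the overall median signal of 1 or more groups. Names came from the platform annotation of 2016, in which 13292 probe sets had 1 symbol, 86 several and 10638 none, controls left out. Where 1 symbol had several probe sets, the brightest was used. The number of arrays limits the precision. Members and lists were chosen with earlier results of these data known. Genes with full statistics passed the threshold or were among the 3 highest or 3 lowest members of a comparison, and the catalytic, inducible and PSME1-PSME2 genes were given throughout. Others (PSMB5 at T12, PSMD1 and PSMA4 at T0, PSMD11, PSMD2 and PSMD14) were chosen after their values were seen. From the other lists, members past the threshold and a few others chosen after their values were seen are named. The script was tested on simulated data. Alternatives were quantile normalization, the floor, the filter, the trend, arrays entered singly, other comparators and leaving out each array. Array numbers do not pair samples: array 1 minus array 2 correlated between groups at -0.0726 to 0.0973, with 0 of 66 pairs over 0.1.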

Additional observations from a re-analysis of the deposited data

How the results depend on the processing

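Of 69 differences of single genes, 2 turned their sign without 1 array: PSMB10 in LD of CN at T12 (0.25 without the second CN array, and -0.73 without the first) and PSMB9 in the difference between LD and SS (0.017 without the first SS array of NN, and -0.57 without the second). Under 196 checks of counts and medians other than leaving out an array, the value kept within its bounds, and 15 others moved as follows. Genes called in CN at T12 numbered 0, but 2 with the 24 arrays entered singly and 1 with a replicate block added, where 270 and 247 of all probe sets were called. At T0 the counts were 0, 5 and 5 (587 and 565 of all), and 2 without CC among the comparators (PSMD11 and PSME4, with 271 of all). Genes called with age numbered 8, against 5 after quantile normalization, 3 without a filter on low signal and 0 without an intensity trend. Of all probe sets 1831, 1810, 1667 (of 24016 tested) and 239 were called in these fits. SS against LD called 1 (463 of all), against 0 without a trend (86), 2 with arrays singly (1154) and 3 with the replicate block (1137). SS against SM and ST called 0 (156 of all), and 1 in either fit of single arrays (495 and 513). The fits of single arrays had the group as a random block, and the array numbers do not pair the groups. Quantile normalization moved the median of the constitutive subunits to -0.15 for the change of the CN difference with age and to -0.013 for SS against SM and ST.

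Leaving out each array in turn gave these ranges for the median of the constitutive subunits: 0.19 to 0.31 for CN at T12, 0.20 to 0.31 at T0, -0.12 to -0.025 for their difference, -0.032 to 0.13 for CN in SS (with 9 to 21 subunits above 0), 0.079 to 0.27 for LD minus SS, -0.15 to 0.0099 for SS against SM and ST, -0.067 to 0.12 for SM and ST against LD, 0.062 to 0.18 for NC against NN and 0.0096 to 0.086 for CC against NN. Calls ranged from 0 to 1 for CN at T0, 3 to 8 with age and 0 to 2 for SS against LD. The causes were not tested. Each group has 1 value, so no result can separate animals from genotype, and PSMB10, PSMD9, PSMD10, PSMD13 and PSMG3 had the widest gaps between arrays, 0.34 to 0.42.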
